A study of Arabidopsis thaliana with 6 samples.

Results

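Cysteine-rich receptor-like kinases, the CRK family of *Arabidopsis thaliana*, were followed as 40 genes chosen by locus, out of 30865 genes in the count table. All 40 loci were found in the counts and in the table of FPKM (fragment counts scaled by transcript length and library size), and 32 of them reached at least 10 counts in 3 or more libraries. The libraries were made from messenger RNA of whole, untreated seedlings 9 days old, grown on MS medium with sucrose. There were 3 libraries of the wild-type accession Col-0 and 3 of the nup50c mutant, mutated in a gene for a nucleoporin of the nuclear basket. The labels give neither allele nor genetic background, and the number after each mutant title was read as a replicate although it could name an allele. They also do not say whether samples of a group came from separate cultures, and the p-values below then cover only sample-to-sample spread, possibly technical.

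A CRK protein has an extracellular part with cysteine-rich DUF26 domains, a single membrane span and a cytoplasmic serine/threonine kinase. Many CRK genes are induced by salicylic acid, by pathogens or by reactive oxygen, and several of the proteins act beside pattern receptors at the plasma membrane. Their transcripts are therefore often read together with those of the salicylic acid pathway, and the W-box (core TTGAC), which WRKY transcription factors bind, has been studied in their promoters.

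In the TAIR10.1 annotation 36 of the 40 genes lie on chromosome 4, and 20 of them, *CRK5* to *CRK24*, form a tandem array of 74214 bases from 12117491 to 12191704. In that array 11 genes are on the minus strand and 9 on the plus strand, with 1 other protein-coding gene inside its bounds. All 40 are annotated as protein-coding. Translated coding sequences held the cysteine spacing of the DUF26 domain (a cysteine, 8 residues, a cysteine, 2 residues, a cysteine) exactly 2 times in 36 of the 40 members. The catalytic-loop and metal-binding triplets of an active kinase were both present in 37. *CRK9*, annotated as *EP1*, is a short form of 265 residues with neither triplet, against a median of 661 residues over the family.

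Within 250 bases upstream of the annotated start, 30 of the 40 members held at least 1 TTGAC on either strand, and 17 (42.5%) held 2 or more. For these counts a window was kept whole where it ran into a neighbouring gene. That of *CRK16* lies inside *CRK17* and that of *CRK28* inside *CRK29*. Over 27443 nuclear protein-coding genes, 44.9% held 1 and 14.1% held 2 or more. Another core, TGACG, which TGA factors bind, was found upstream of 13 members (32.5%) and of 18.6% of all genes, with TTGACG counting for both. TTGAC was found in 15 of the 20 members inside the array and in 15 of the 20 outside it. The upstream sequences of 4 genes named below are printed, 5′ to 3′ on the gene's strand and ending at the base before the start. No link between these sequences and the expression values was tested. Capitals mark TTGAC or its complement GTCAA. *CRK15* (AT4G23230, chr4:12160280-12160477, minus strand, stopped at the 3′ end of *CRK16*) and *CRK37* (AT4G04500, chr4:2238120-2238369, plus strand) are the members that passed the test. *CRK5* (AT4G23130, chr4:12120221-12120470, minus strand) and *CRK11* (AT4G23190, chr4:12143859-12144108, minus strand) were chosen after their values were seen.
CRK15 upstream: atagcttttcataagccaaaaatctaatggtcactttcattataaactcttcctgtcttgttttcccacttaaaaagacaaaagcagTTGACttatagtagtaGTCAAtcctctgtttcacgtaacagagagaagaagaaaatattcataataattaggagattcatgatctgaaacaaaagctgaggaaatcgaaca
CRK37 upstream: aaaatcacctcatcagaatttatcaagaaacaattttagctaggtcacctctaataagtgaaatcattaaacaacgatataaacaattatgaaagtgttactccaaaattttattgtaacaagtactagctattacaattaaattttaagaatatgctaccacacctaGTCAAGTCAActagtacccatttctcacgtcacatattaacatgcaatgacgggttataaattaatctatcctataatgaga
CRK5 upstream: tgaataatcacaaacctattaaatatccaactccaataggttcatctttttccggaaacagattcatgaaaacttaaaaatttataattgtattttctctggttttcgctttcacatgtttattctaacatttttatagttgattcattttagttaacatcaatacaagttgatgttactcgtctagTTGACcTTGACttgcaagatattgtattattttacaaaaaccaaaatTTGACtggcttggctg
CRK11 upstream: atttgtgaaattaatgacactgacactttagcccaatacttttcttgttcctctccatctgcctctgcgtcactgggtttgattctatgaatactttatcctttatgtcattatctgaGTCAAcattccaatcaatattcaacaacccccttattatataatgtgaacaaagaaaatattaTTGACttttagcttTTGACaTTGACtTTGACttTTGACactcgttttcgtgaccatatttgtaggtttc
*CRK15* holds 2 such cores and *CRK37* 2 adjoining copies in reverse orientation, while *CRK5* holds 3 and *CRK11* 6, the highest number among the 40 windows. A match is a description of these letters and not a binding site.

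The libraries held 33273007 to 39574236 counts. *NUP50C* (AT4G11790), the mutated gene, had 1255, 1100 and 1142 counts in Col-0 and 469, 376 and 336 in nup50c, so it was reduced and not lost (log2 fold change -1.49, SE 0.15, edgeR adjusted p = 0.00293). Its groups did not overlap. On a principal component analysis the first component, with 35.7% of the variance, set Col-0 at -37.71 to -11.35 and nup50c at 21.01 to 34.97. The second component, with 23.3% of the variance, set nup50c replicate 3 at -47.7, while the other libraries lay between -7.49 and 18.4. Seedling markers were present: 5 shoot markers summed to 23890 to 25020 CPM (counts scaled to library size by TMM) in Col-0 and to 20110 to 21820 in nup50c, and 5 root markers to 52.1 to 66.2 and to 56.1 to 66.7. Of the shoot markers, the antenna genes *LHCB1.2* (log2 fold change -0.81, edgeR adjusted p = 0.00646) and *LHCA1* (-0.79, 0.00299) fell. The other shoot markers, *RBCS1A* (-0.03, 0.815), *RCA* (-0.11, 0.406) and *STOMAGEN* (-0.05, 0.936), did not pass, and 0 of the root markers passed. Of 3 flower and 3 seed storage markers, 2 each were at 0 in all libraries. The part of the lower shoot marker sum in the results below was not tested. In whole seedlings, fewer cells of a type and less RNA per cell cannot be told apart.

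The members differed widely in level in wild type. By mean FPKM in Col-0, a level per transcript length, 9 members stood at 10 or more, 18 between 1 and 10, 10 below 1 but above 0, and 3 at 0. *CRK10*, for which a gain-of-function allele is known to disturb xylem vessels, was highest at 21.0 ± 2.95 FPKM (SD, n = 3). *CRK40* (AT4G04570) followed at 20.8 ± 1.84, and their single libraries overlapped. *CRK29* stood next at 15.8 ± 1.60 FPKM, below *CRK40* in each library, and *CRK19*, whose overexpression triggers cell death, at 14.2 ± 0.979. Along the order of the 40 levels, 36 of the 39 neighbouring pairs overlapped in their Col-0 libraries. The separated neighbours were *CRK40* over *CRK29*, *CRK5* over *CRK27*, and *CRK16* over *CRK26*. Within the array the levels did not follow the gene order: *CRK10* and *CRK19* were high, while *CRK8* and *CRK20*, each beside a well-expressed gene, were at 0 in all 6 libraries and in 5 of 6.

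**Figure D1:**
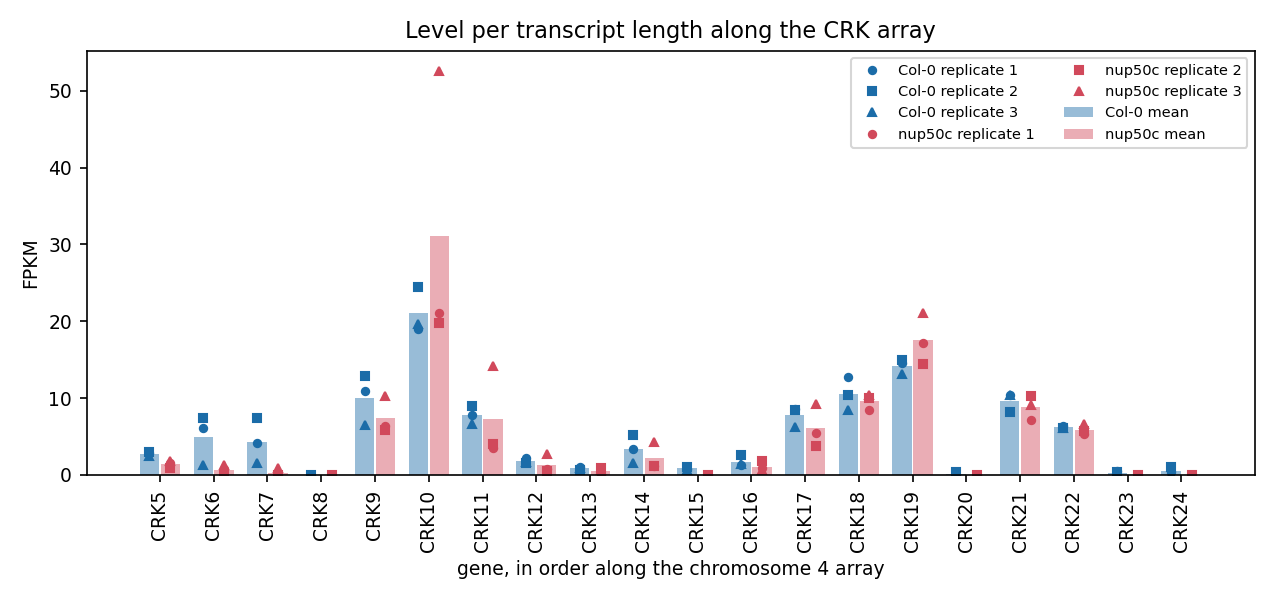
FPKM of the 20 array genes in their order on chromosome 4. Bars are means of 3 libraries (blue Col-0, red nup50c) and points are single libraries; *CRK10* reaches 52.6 FPKM in nup50c replicate 3 and stays between 19.0 and 24.4 in the other libraries.

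The counts of low members need care. Of the 240 values of the 40 members, 53 were 0 and the lowest above 0 was 23. A member was thus listed either at 0 or with at least that many, while 2033 of the 185190 values of the whole table lay between 1 and 9. An FPKM above 0 stood beside 4 of the zeros, all in *CRK13* and *CRK32*. A 0 may be a failed estimate, which was not tested. *CRK8*, *CRK31* and *CRK33* were at 0 in all libraries. The filter was just met by *CRK37* (40, 53 and 23 counts in Col-0, 0 in each nup50c library) and *CRK15* (61, 81 and 55 in Col-0, 0 in each nup50c library). Just below it were *CRK38* (49, 34 and 0 in Col-0), *CRK23* (59, 48 and 0) and *CRK24* (35, 82 and 0), each at 0 in all nup50c libraries, and *CRK32*, with 34 counts in Col-0 replicate 2, 55 in nup50c replicate 3 and 0 elsewhere. *CRK20* had 35 counts in Col-0 replicate 2 alone. Among all 40 members, 6 had counts in some Col-0 library and 0 throughout nup50c, and 0 showed the opposite. Over the 30865 genes of the table, each nup50c library also held more zeros (9655 to 9740) than each Col-0 library (9379 to 9475). The share of all genes with counts in Col-0 alone was not counted, so these members are not read as a result about the family. Members that met the filter only through Col-0 had to differ between groups, so the counts that follow describe the 32 members that passed and lend no support to a shift of the family.

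The comparison of nup50c with Col-0 asks which CRK transcripts differ in the mutant. By edgeR's quasi-likelihood test over 21158 genes with Benjamini-Hochberg adjustment, 2 of the 32 members passed downward, *CRK15* and *CRK37*, and 0 passed upward. Over all tested genes 1.17% passed downward and 1.12% upward. In either direction 2.28% passed. At an unadjusted p under 0.05, 4 members were lower and 0 higher, which is 12.5% of the 32 in either direction against 16.6% of all tested genes (7.98% lower and 8.66% higher). Among the 25 members above 0 in every library the share was 8%, against 17.4% of such genes. DESeq2, which gave values for 37 members, called 3 lower (*CRK38* as well) and 0 higher, against 2.8% of all genes lower and 3.01% higher. *CRK15*, an array gene, was measured at 1.73, 2.24 and 1.40 CPM in Col-0 and listed at 0 in each nup50c library (edgeR adjusted p = 0.0148). *CRK37* was measured at 1.14, 1.46 and 0.584 CPM in Col-0 and likewise listed at 0 in nup50c (adjusted p = 0.0412). Both calls therefore rest on zeros, beside which the FPKM was also 0. Whether these zeros are failed estimates was not tested, and no fold is given. The call of *CRK37* was lost when any single library was left out, and that of *CRK15* when any single Col-0 library was left out. With limma on log2(FPKM + 1), 0 of 27 members passed, against 1.42% of all genes lower and 1.37% higher, and 5 were lower and 0 higher at an unadjusted p under 0.05, against 8.74% and 9.59% of all genes. The FPKM filter had removed *CRK15* and *CRK37* from that fit. With no filter they had limma adjusted p = 0.0503 and 0.0846.

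**Figure D2:**
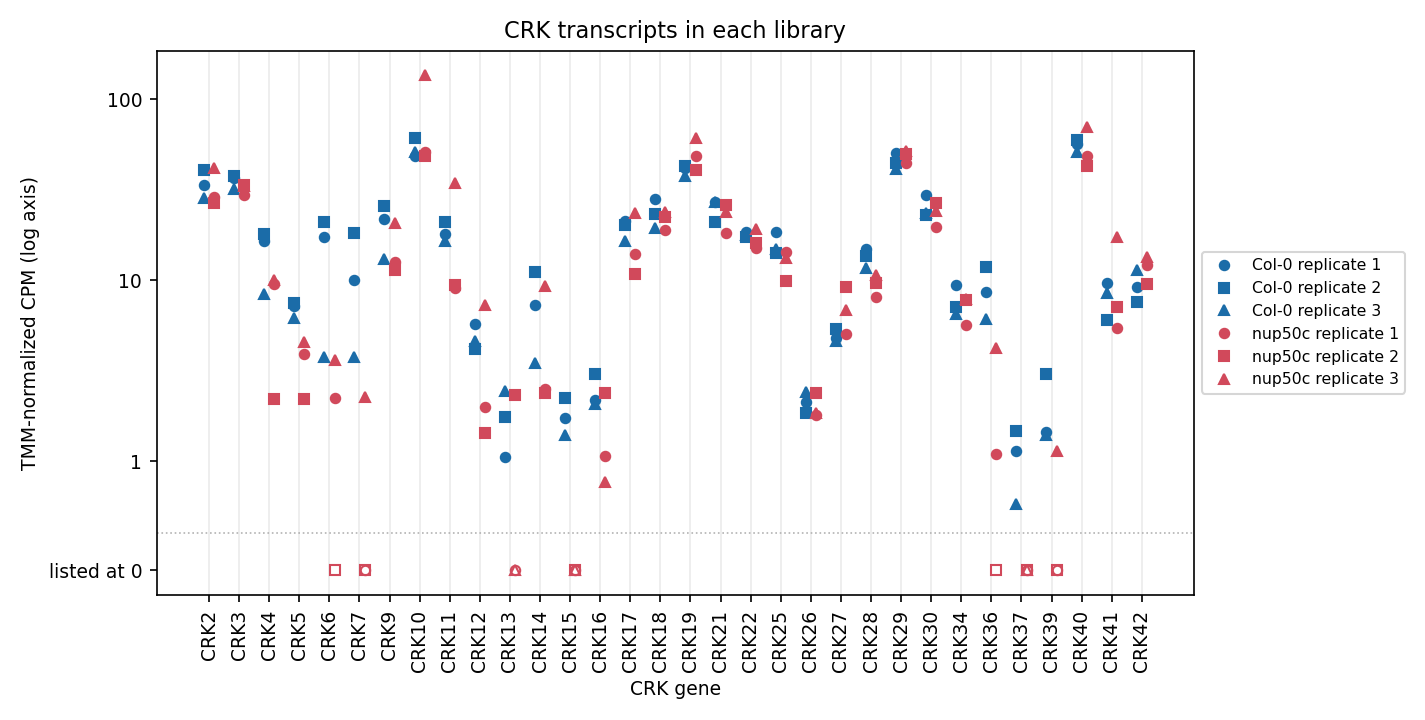
TMM-normalized CPM (log axis) of the 32 members that met the filter, in each library. Blue is Col-0 and red nup50c, with 1 symbol per replicate number; open symbols below the dotted line are libraries listed at 0, all of them nup50c libraries, and the red triangle of *CRK10* at 135.6 CPM is the highest value.

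Fitted changes were below 0 for 26 of the 32 members, with a median log2 fold change of -0.21, while 50.5% of all tested genes were below 0, with a median of -0.00. Among the 25 members above 0 in every library, 19 were below 0 at a median of -0.11, against 49.7% and a median of 0.00 over such genes. In 8 members every nup50c library lay below every Col-0 library, and in 0 members above; over all tested genes 11.6% lay wholly below and 11.7% wholly above. These 8 were *CRK5*, *CRK6*, *CRK7*, *CRK15*, *CRK28*, *CRK36*, *CRK37* and *CRK39*. Of them 7 (87.5%) held a TTGAC upstream, against 23 (71.9%) of the other 32, which include members that did not meet the filter. The member without it was *CRK28*, whose window lies inside *CRK29*. The 8 were picked by their values, and a link between TTGAC and the changes was not tested.

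**Figure D3:**
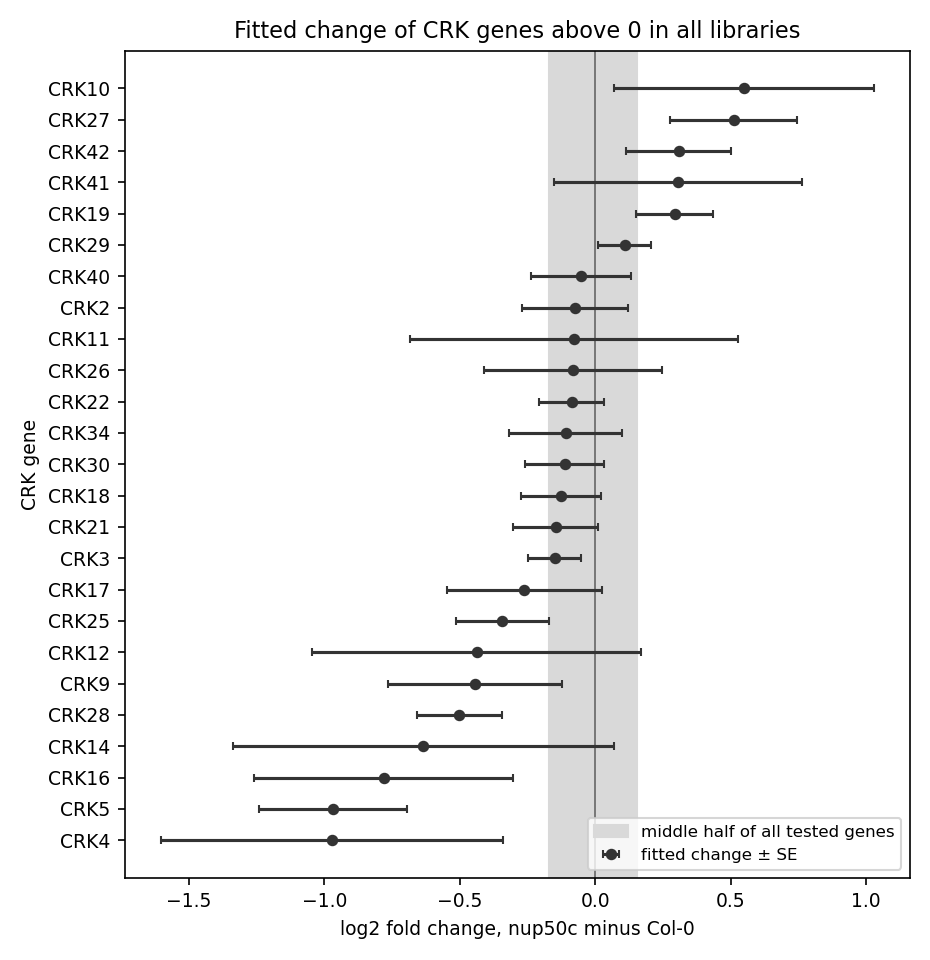
Fitted log2 fold change, nup50c minus Col-0, of the 25 members above 0 in all libraries, with the standard error as bars and the quartiles of all tested genes (-0.17 to 0.15) as the grey band. The points run from -0.97 for *CRK4* to 0.55 for *CRK10*, and 0 of them passed the test.

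Among the members with a known part in cell death, *CRK5*, which is induced by salicylic acid, had 7.25, 7.51 and 6.17 CPM in Col-0 and 3.92, 2.21 and 4.57 in nup50c. The groups did not overlap, with nup50c replicate 2 lowest. The mean went from 6.98 ± 0.710 to 3.57 ± 1.22 CPM (SD, n = 3 each), a log2 fold change of -0.97 (SE 0.27), which did not pass (edgeR adjusted p = 0.114; 0.0627 to 0.326 over the 15 alternatives). *CRK4*, whose overexpression also triggers cell death, had 16.4, 18.0 and 8.38 CPM in Col-0 and 9.55, 2.21 and 10.1 in nup50c. Here Col-0 replicate 3 lay among the nup50c values, and the test was not passed (log2 fold change -0.97, SE 0.63, adjusted p = 0.539). *CRK19*, of the same functional group, had a log2 fold change of 0.29 (SE 0.14, adjusted p = 0.354).

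The members tied to extracellular reactive oxygen, *CRK6* and *CRK7*, neighbours in the array, varied several-fold within wild type. *CRK6* had 608, 765 and 149 counts in Col-0 and 77, 0 and 118 in nup50c. *CRK7* had 355, 661 and 148 counts in Col-0 and 0, 0 and 74 in nup50c. In both genes Col-0 replicate 3 lay far below the other wild-type libraries, though still above the mutant ones. Its gap to nup50c replicate 3 was narrow in *CRK6*, at 3.78 against 3.62 CPM, and wider in *CRK7*, at 3.76 against 2.27 CPM. Neither gene passed the test (edgeR adjusted p = 0.401 and 0.364). *CRK6* shares an exact run of 368 coding bases with *CRK8*, longer than a read of 150. *CRK8* was listed at 0 in all libraries, so no reads were assigned to it. How reads from that run were treated is not stated, and the counts of *CRK6* are uncertain.

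Among the members known to act beside pattern receptors or the oxidase they switch on, *CRK28* (AT4G21400), which associates with the co-receptor BAK1, had 14.9, 13.7 and 11.7 CPM in Col-0 and 8.13, 9.64 and 10.6 in nup50c. All mutant values lay below all wild-type ones, and the fitted difference of -0.50 on the log2 scale (SE 0.16) did not pass (edgeR adjusted p = 0.148; 0.109 to 0.414 over the alternatives). Its annotated bounds overlap those of *CRK29* by 470 bases on the same strand, and *CRK29* had 50.3, 44.3 and 41.3 CPM in Col-0 and 44.5, 50.2 and 51.6 in nup50c, groups that overlap (log2 fold change 0.11, SE 0.10, adjusted p = 0.652). *CRK36*, which phosphorylates the cytoplasmic kinase BIK1, had 302, 430 and 240 counts in Col-0 and 38, 0 and 138 in nup50c (adjusted p = 0.478). Its groups did not overlap either, and 1 mutant library was at 0. *CRK39*, a neighbour in the same small cluster, had 51, 110 and 55 counts in Col-0 and 0, 0 and 37 in nup50c (adjusted p = 0.541), and shares a run of 182 coding bases with *CRK40*. *CRK2*, which phosphorylates the oxidase RBOHD, had overlapping groups at 33.9, 40.6 and 28.4 CPM in Col-0 and 29.0, 26.9 and 41.7 in nup50c (log2 fold change -0.08, SE 0.20, adjusted p = 0.906). *CRK13*, whose overexpression raises resistance to bacteria, had 37, 64 and 96 counts in Col-0 and 0, 87 and 0 in nup50c. In nup50c replicate 3 its FPKM was 0.632 beside the count of 0, and it shares 309 exact coding bases with *CRK22*.

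A group of members was high in 1 mutant library. *CRK10* had 48.7, 60.9 and 51.0 CPM in Col-0 and 51.3, 48.4 and 136 in nup50c, so that nup50c replicate 3 was 2.72 times the mean of the other nup50c libraries, which lay within the wild-type values or just below them. *CRK11*, its neighbour, had 18.1, 21.1 and 16.5 CPM in Col-0 and 9.09, 9.40 and 34.4 in nup50c. The same library was thus above wild type and the other mutant libraries below it. *CRK12* showed the same order, with 5.74, 4.20 and 4.62 CPM in Col-0 and 2.00, 1.44 and 7.33 in nup50c, and *CRK41*, outside the array, had 5.46, 7.16 and 17.3 CPM in nup50c against 6.05 to 9.64 in Col-0. Over all 6 libraries none of the 4 passed (adjusted p from 0.666 to 0.972). Without nup50c replicate 3, *CRK11* (log2 fold change -1.01, edgeR adjusted p = 0.018) and *CRK12* (-1.50, 0.0446) passed downward, as did *CRK15* (0.0181) and *CRK39* (0.0188), 4 of 35 members against 1.24% of all genes. *CRK15* and *CRK39* were then at 0 in every remaining mutant library and met the filter only through Col-0, so only *CRK11* and *CRK12* of the 4 rest on counts in both groups. *CRK10* and *CRK11* overlap on opposite strands by 32 bases, and the sources used here do not say if the counting was stranded. *CRK40*, the other abundant member, had 57.1, 59.8 and 50.9 CPM in Col-0 and 48.6, 42.8 and 70.4 in nup50c, with the same library highest and the other mutant libraries lowest (log2 fold change -0.05, SE 0.18, adjusted p = 0.932).

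Over the 25 members above 0 everywhere, the highest library was nup50c replicate 3 in 11 and Col-0 replicate 1 or 2 in 6 each. The lowest was nup50c replicate 1 in 10 and nup50c replicate 2 in another 10. For all 19959 such genes, Col-0 replicate 1 was highest in 17.4%, Col-0 replicate 2 in 16.4% and nup50c replicate 3 in 20.8%, with nup50c replicate 1 lowest in 15.9% and nup50c replicate 2 lowest in 16.1%. When nup50c replicate 3 was set aside, the groups separated downward in 15 of 32 members, against 17.5% of all tested genes, a count chosen after seeing the data. The 7 added members were *CRK9*, *CRK11*, *CRK12*, *CRK14*, *CRK17*, *CRK22* and *CRK40*.

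The summed level of the 20 array genes was 281.0, 306.7 and 227.2 CPM in Col-0 and 199.4, 195.9 and 370.4 in nup50c. That of *CRK36* to *CRK40* was 69.6, 77.2 and 59.0 CPM in Col-0 and 49.7, 42.8 and 75.8 in nup50c. Both sums were lowest in nup50c replicates 1 and 2, and in both nup50c replicate 3 lay above Col-0 replicate 3. Single abundant genes weigh heavily in these sums. *CRK40* alone had 42.8 CPM in nup50c replicate 2 and 70.4 in nup50c replicate 3, and *CRK10* had 136 of the array's 370.4 CPM in nup50c replicate 3. The sum of *CRK27* to *CRK29* ran from 57.7 to 69.9 CPM in Col-0 and from 57.7 to 69.1 in nup50c, ranges that nearly coincide.

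Members with the largest fitted values above 0, apart from *CRK10*, were *CRK27* and *CRK42*. *CRK27* had 169, 194 and 182 counts in Col-0 and 174, 344 and 223 in nup50c (log2 fold change 0.51, SE 0.23, adjusted p = 0.320). *CRK42*, the member on chromosome 5, had a log2 fold change of 0.31 (SE 0.19, adjusted p = 0.489). Their groups overlapped. The remaining members that passed the filter, *CRK3*, *CRK14*, *CRK16*, *CRK17*, *CRK18*, *CRK21*, *CRK22*, *CRK25*, *CRK26*, *CRK30*, *CRK34* and *CRK9*, had log2 fold changes from -0.78 (*CRK16*) to -0.08 (*CRK26*), and none passed. *CRK14* spanned 257, 405 and 138 counts in Col-0 and 86, 90 and 303 in nup50c, and *CRK9* 771, 932 and 520 in Col-0 and 434, 430 and 674 in nup50c. In both, nup50c replicate 3 lay among the Col-0 values and the other mutant libraries below them. *CRK16* and *CRK17* overlap by 1190 bases on the same strand and share 339 exact coding bases, so the values of either are uncertain.

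Other genes around the family were taken as lists. Of 6 CRK genes outside the 40, 3 were tested and 0 passed edgeR's test, with 0 at an unadjusted p under 0.05 and 0 by DESeq2. *CRK45*, a partner of *CRK36* in abscisic acid signalling also known as *ARCK1*, had 407, 736 and 215 counts in Col-0 and 51, 0 and 137 in nup50c (adjusted p = 0.413), the groups not overlapping. *CRK44* had 36, 22 and 24 counts in Col-0 and 0, 26 and 0 in nup50c, groups that overlap (adjusted p = 0.650). *CRK43*, described after its values were seen, had 502, 545 and 500 counts in Col-0 and 435, 489 and 910 in nup50c, high in nup50c replicate 3 alone (log2 fold change 0.35, adjusted p = 0.671). The 8 plasmodesmata-located proteins, which carry DUF26 domains without a kinase, gave 0 calls by edgeR and by DESeq2, 1 at an unadjusted p under 0.05 (*PDLP3*, log2 fold change 0.22, adjusted p = 0.236), and a median of -0.07. *PDLP4* had the next smallest p (log2 fold change -0.45, adjusted p = 0.496). Of 17 pattern receptors, co-receptors and cytoplasmic kinases, 0 passed by edgeR or DESeq2, 0 reached an unadjusted p under 0.05 by edgeR and 1 by DESeq2, and 12 lay above 0 at a median of 0.12. *PUB13*, a ubiquitin ligase of the FLS2 receptor (log2 fold change -0.15, adjusted p = 0.376), and *BKK1*, a co-receptor (-0.57, 0.417), had the smallest p.

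In the list for salicylic acid synthesis, signalling and response, chosen with its earlier results known, 20 of 24 genes lay below 0 at a median of -1.04, and 0 passed by edgeR. At an unadjusted p under 0.05, 9 of the 24 were lower and 0 higher, against 7.98% of all genes lower. DESeq2 called 6 lower, against 2.8% of all genes, and limma called 1 lower, *PAD4*, against 1.42%. *PR1*, a pathogenesis-related marker of the pathway, had 11140, 10955 and 1783 counts in Col-0 and 645, 0 and 2286 in nup50c. *NIMIN2*, which binds the receptor NPR1, had 295, 376 and 138 counts in Col-0 and 74, 50 and 80 in nup50c (adjusted p = 0.0634). *PAD4*, a node of salicylic acid signalling, had 39.9, 51.6 and 32.2 CPM in Col-0 and 18.7, 14.4 and 23.8 in nup50c (adjusted p = 0.0686). The groups of *NIMIN2* and *PAD4* did not overlap and those of *PR1* did.

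Each gene was also set against its own mean over the 6 libraries, in log2(CPM + 0.5). The salicylic acid list had a median of 0.54, 1.11 and -0.07 in Col-0 and of -0.52, -1.03 and 0.06 in nup50c. For the 32 CRK members the median was 0.30, 0.20 and 0.02 in Col-0 and -0.32, -0.31 and 0.14 in nup50c. For the 17 pattern receptor genes it was -0.00, 0.12 and -0.16 in Col-0 and -0.16, -0.12 and 0.36 in nup50c. Those 32 include members that met the filter only through Col-0. For the 25 CRK members above 0 in every library the median was 0.20, 0.06 and -0.06 in Col-0 and -0.25, -0.21 and 0.14 in nup50c. There nup50c replicates 1 and 2 were lowest, and nup50c replicate 3 lay between Col-0 replicates 1 and 2. The part that the difference between replicates plays in the CRK values was not tested.

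**Figure D4:**
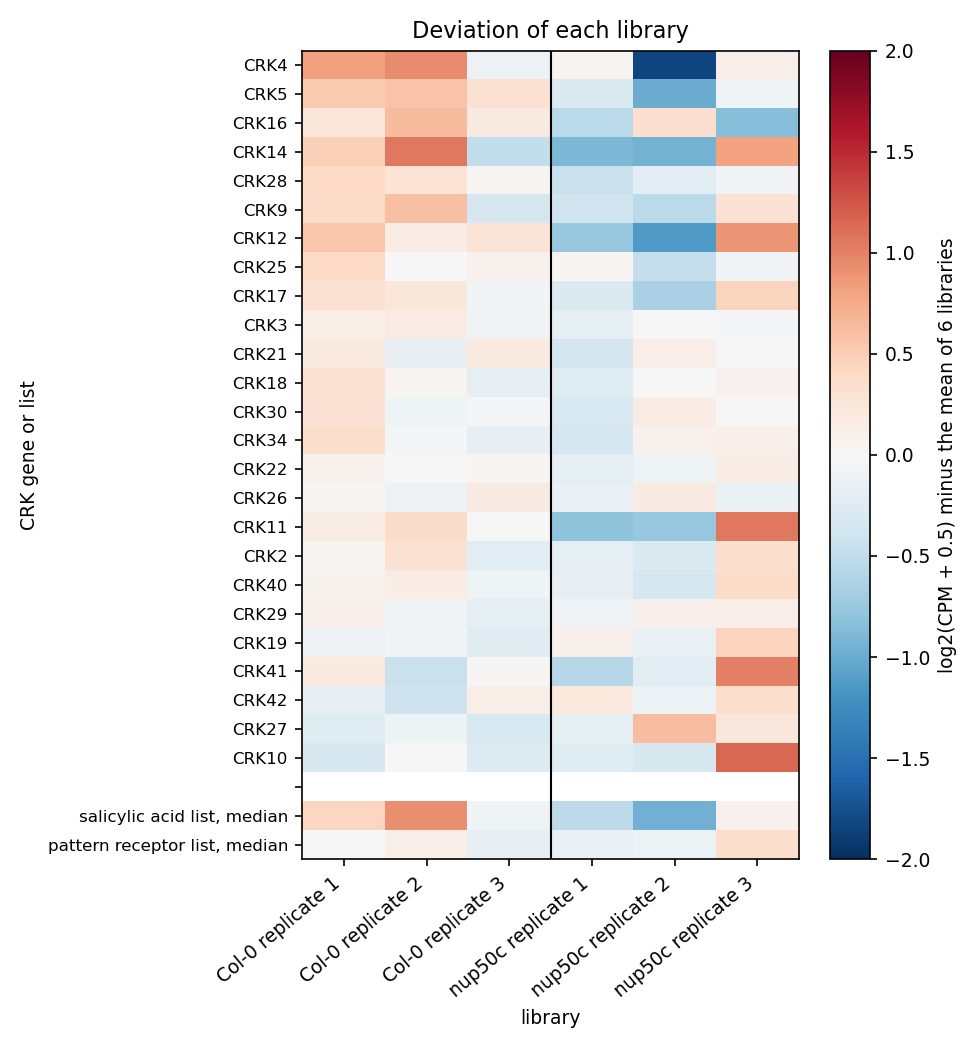
Deviation of each library from the mean of 6 libraries, in log2(CPM + 0.5), for the 25 CRK genes above 0 everywhere, ordered by fitted change, and the medians of the salicylic acid list (20 genes above 0 everywhere) and of 17 pattern receptor genes. The nup50c replicate 3 column is red for *CRK10*, *CRK11*, *CRK12* and *CRK41*, and the nup50c replicate 2 column is darkest blue for *CRK4*.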

How the data were processed

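The authors deposited whole-number counts per gene and FPKM for 6 libraries. Per the submitters' processing notes, the names given are TAIR10 as build, HTSeq 0.6.1p1 and HISAT2 2.0.4. The sources used here do not tell which of them made which values, nor the total used for the deposited FPKM. Per the labels' protocols the libraries were strand-specific.

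The main test was edgeR 4.0.16 in R 4.3.3 on the deposited counts: filterByExpr (10 counts, 15 in total), TMM, robust quasi-likelihood F test, no covariate, adjusted p under 0.05 over 21158 genes. The standard error came from the moderated F. The test was checked on data simulated from edgeR's own fitted model, so the check does not cover ways in which the libraries depart from that model. Changes were set there only in genes with a mean of at least 1 CPM over all libraries, which *CRK15* and *CRK37* do not reach. The check therefore does not cover the calls of these members. Alternatives were DESeq2 1.42.0, limma 3.58.1 on log2(FPKM + 1) or log2(FPKM + 0.1), upper-quartile scaling, other filters, a replicate block and leaving out each library. Among the members no value lay between 0 and 23 counts. Positions, coding sequences (the longest per gene) and upstream sequences came from RefSeq's TAIR10.1, matched by locus for all 40 members, and 38 symbols were the same there. Coding sequences were aligned pairwise with Biopython 1.88. No protein sequence is printed.

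The members and lists were chosen with earlier results of these data known. Genes were named by rule: members called; members above 0 in every library whose groups do not overlap; the 3 with the highest mean FPKM; those beside the filter; those with a 0 among counts of 10 or more; and, per list other than the tissue markers, called genes or the 2 with the smallest p. *CRK2*, *CRK4*, *CRK9*, *CRK11*, *CRK12*, *CRK14*, *CRK19*, *CRK27*, *CRK41*, *CRK42*, *CRK43* and *PR1* were described after their values were seen.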

Additional observations from a re-analysis of the deposited data

How the results depend on the processing

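Over all genes, 236 were higher and 247 lower in nup50c. DESeq2 called 662 and 616, a filter of 10 counts in all libraries 394 and 378, genes above 0 in every library 398 and 380, and the fit with the replicate number as a block 12 and 19. Leaving out 1 library gave 43 to 172 higher and 65 to 266 lower. Of the CRK members, 2 were lower in the main test, 3 with DESeq2, 2 with upper-quartile scaling and 1 with every gene kept. The shares of all tested genes lower in these settings were 1.17%, 2.8%, 1.31% and 1.06%, in the same order. Where all libraries had to reach 10 counts, over genes above 0 in every library and in the 2 limma settings with a filter, 0 were lower, but *CRK15* and *CRK37* were not tested there. With the replicate block and with limma on all genes they were tested and 0 were lower. Leaving out 1 library gave 0 to 4 lower. The highest, 4, was without nup50c replicate 3, and 0 were called without Col-0 replicate 1, 2 or 3. In each of the 15 alternatives 0 members were higher. The members whose groups do not overlap numbered 8 to 15 lower and 0 to 2 higher without 1 library, an alternative chosen after seeing the data. Over all tested genes the shares without 1 library were 15.2% to 17.8% lower and 15.4% to 17.9% higher. The causes of these moves were not tested. Same-numbered libraries of the groups did not deviate together (correlations -0.02, -0.15 and -0.13), so the numbers are not read as pairs and calls lost under the block are not read as weaker effects. Of 456 fitted changes of single members under the alternatives, 440 kept the sign of the main fit. The alternatives reuse the same 6 libraries or leave out 1 of them, and members at 0 throughout nup50c could not change sign. The count is therefore not read as a measure of how stable the changes are.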
